A study of Homo sapiens with 8 samples.

Results

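Aminoacyl-tRNA synthetases join each amino acid to its transfer RNA, the step that fixes what a codon means during translation. One set of these enzymes works in the cytosol, and a second set, also encoded in the nucleus, is imported to serve the mitochondrial ribosome. The 35 synthetase genes described here were chosen by symbol from the 34415 genes of the deposited table. Of these, 19 encode cytosolic enzymes or subunits and 16 encode mitochondrial enzymes, and all 35 had a row in the table. The assignment went by the ending of the symbol. The cytosolic set therefore includes GARS1 and KARS1, the glycyl and lysyl enzymes, whose single genes each supply both compartments.

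RNA was sequenced from TeloHAEC, a telomerase-immortalised line of human aortic endothelial cells (the genotype field repeats the line's name), in 4 libraries with estradiol and 4 control libraries without it. The sample titles say "PA supplied" for both groups, read here as palmitic acid, a saturated fatty acid. By the titles there was no group without it. The treatment field reads "PA-supplied" for the estradiol samples and "Control" for the others. These labels differ from the titles, which were followed here. If only the estradiol samples had received PA, its effect could not be told apart from that of estradiol. Neither doses nor exposure times are given in the sources used here. Nor do the labels say that replicates came from separate cultures, so p-values measure only how far these libraries vary, which may be technical variation. Of 8 endothelial markers, 7 had a mean of at least 1 FPKM (fragments scaled to gene length and library size), with CDH5, the endothelial cadherin, at 127 FPKM. The eighth, EMCN, stood at 0.280 FPKM. None of 4 leukocyte, 2 epithelial and 3 fibroblast markers reached 1 FPKM. Whole reads could be recovered from the FPKM values, at 33421051 to 39899258 reads per library. Estradiol replicate 4 and control replicate 3 stood apart from the other 6 libraries along a first principal component that held 68.7% of the variance, so results are also given without them.

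In many cells a shortage of charged transfer RNA or other stress raises the transcription factor ATF4, which binds C/EBP-ATF response elements near target genes, several cytosolic synthetases among them. The core of that element was searched in the RefSeq promoters (GRCh38.p14, 250 bases before to 50 after each annotated start) as TGATGNAA on either strand, which reads TTNCATCA on the other. Of the members, 30 matched a promoter, and LARS1, VARS1, YARS1, AARS2 and VARS2 did not. The letters were present in 7 of 16 cytosolic members with a promoter (43.8%) and in 1 of 14 mitochondrial members (7.14%), against 1217 of 27305 genes in the whole promoter table (4.46%) and 228 of 8746 genes that were also tested for expression (2.61%). The 30-base windows below show each match and the bases around it. The search fixed every letter of the match except N, so likeness at the other letters follows from the search. The match is in capitals, each window reads 5′ to 3′ on the strand of its gene, and each is RefSeq sequence of GRCh38.p14.
AARS1, chr16:70289675-70289704, minus strand: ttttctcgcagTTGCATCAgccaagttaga
CARS1, chr11:3057407-3057436, minus strand: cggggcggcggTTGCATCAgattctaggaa
GARS1, chr7:30594834-30594863, plus strand: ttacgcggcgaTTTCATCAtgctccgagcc
IARS1, chr9:92293692-92293721, minus strand: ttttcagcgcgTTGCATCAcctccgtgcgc
MARS1, chr12:57488053-57488082, plus strand: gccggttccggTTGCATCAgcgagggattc
NARS1, chr18:57621804-57621833, minus strand: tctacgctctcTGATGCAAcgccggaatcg
TARS1, chr5:33440956-33440985, plus strand: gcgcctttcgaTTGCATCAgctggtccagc
YARS2, chr12:32756076-32756105, minus strand: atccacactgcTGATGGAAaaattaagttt
In AARS1, CARS1, IARS1, MARS1 and TARS1 the free letter N was the same, a G as shown, and NARS1 held the same match on the opposite strand. The first matched base lay at -4 from the start in MARS1, -2 in CARS1, -13 in IARS1 and -33 in GARS1, and at -187 in AARS1 and -197 in YARS2. In TARS1 and NARS1 it lay 3 and 15 bases into the transcript, counting the start base as 1. A match is a description of letters and was not tested as a binding site.

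HARS1 and HARS2, the cytosolic and mitochondrial histidyl enzymes, lie head to head. The 84 bases between their annotated starts, shown because this one stretch lies upstream of both genes, read on the plus strand, where HARS2 starts to the right and HARS1 runs to the left from the other end.
HARS1-HARS2, chr5:140691371-140691454, plus strand, GRCh38.p14: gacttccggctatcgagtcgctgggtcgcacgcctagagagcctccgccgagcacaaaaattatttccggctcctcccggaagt

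Cytosolic synthetase transcripts were more abundant than mitochondrial ones in all 8 libraries. The median over the 19 cytosolic members was 66.0, 66.1, 68.5 and 68.2 FPKM in estradiol replicates 1 to 4, and 66.2, 64.5, 71.1 and 66.4 FPKM in control replicates 1 to 4. The median over the 16 mitochondrial members was 5.89, 5.91, 5.69 and 5.08 FPKM in estradiol libraries, and 6.19, 5.45, 4.93 and 5.99 FPKM in control libraries. The ratio of the medians was 12.0 ± 1.06 with estradiol and 12.0 ± 1.68 in control (SD, n = 4 each). It was highest in the 2 libraries that stood apart, at 13.4 in estradiol replicate 4 and 14.4 in control replicate 3. The ratio of summed FPKM did not follow that order: it was 11.8 in estradiol replicate 4, the lowest of the 8 libraries, and 12.8 in control replicate 3, within the range of the others. By sums the ratio averaged 12.6 ± 0.58 with estradiol and 12.7 ± 0.26 in control (SD, n = 4 each). The median gene among the 10720 with a mean of at least 1 FPKM stood at 8.84 FPKM, and 18 of 19 cytosolic but 6 of 16 mitochondrial members were above it. Together the members took 0.550% ± 0.00200 of recovered reads in estradiol libraries and 0.542% ± 0.00886 in control libraries (SD, n = 4 each), most of it cytosolic (0.505% and 0.497%).

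Levels within each set covered a wide range, plotted by library for all members. The highest was GARS1, the glycyl enzyme of both compartments, at 271, 276, 289.5 and 316 FPKM in estradiol replicates 1 to 4, and 274, 282, 307 and 284 FPKM in control replicates 1 to 4. Estradiol replicate 4 and control replicate 3 were its highest libraries, and the groups overlapped. WARS1, the tryptophanyl enzyme, which interferons are known to induce and whose shortened forms are known to act on endothelial cells, had 206, 204, 208 and 182 FPKM with estradiol, and 203, 210.0, 181 and 214 FPKM in control. Here the same 2 libraries were the lowest. SARS1, the seryl enzyme, known from zebrafish for a part in vessel development, had 219.8, 213, 204 and 159.6 FPKM with estradiol and 201, 202, 164 and 209.9 FPKM in control, again lowest in those 2 libraries. The mean levels of WARS1 and SARS1, 201 and 197 FPKM, differed by less than the spread between libraries.

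**Figure D1:**
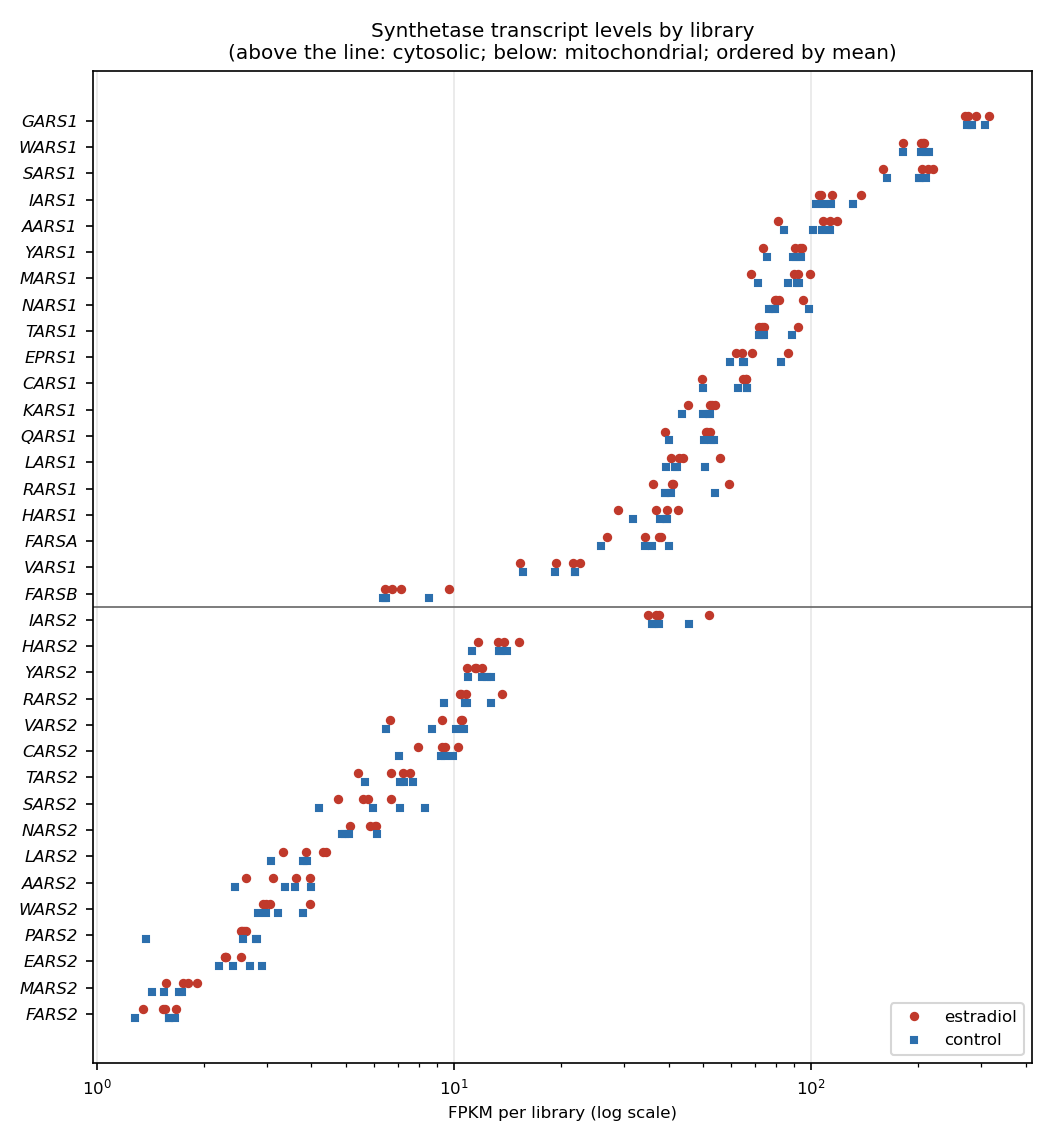
FPKM of each synthetase gene (log axis) in each estradiol (red circles) and control (blue squares) library, with cytosolic members above the line and mitochondrial members below, each ordered by mean. The 2 groups overlap for every gene, from GARS1 at a mean of 287 FPKM to FARS2 at 1.53 FPKM.

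The 7 cytosolic members of the multi-synthetase complex, a large assembly that holds several synthetases together with scaffold proteins, had means between 43.8 and 115 FPKM, a narrower range than the other 12 cytosolic members, at 7.22 to 287 FPKM. IARS1, the isoleucyl enzyme, was the highest at 115 FPKM and RARS1, the arginyl enzyme, the lowest at 43.8 FPKM. Further subunits were MARS1 (methionyl, 86.5 FPKM) and LARS1 (leucyl, also known as a leucine sensor for mTORC1, 44.6 FPKM). EPRS1, one protein with glutamyl and prolyl activity, had 64.3, 61.8, 68.5 and 86.7 FPKM in estradiol replicates 1 to 4, and 59.5, 64.5, 82.4 and 65.3 FPKM in control replicates 1 to 4. KARS1 had 52.3, 52.8, 53.8 and 45.4 FPKM with estradiol, and 50.04, 52.0, 43.5 and 52.3 FPKM in control. The libraries that stood apart were the highest for EPRS1 and the lowest for KARS1, so subunits of 1 complex went opposite ways there.

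The lowest cytosolic members were VARS1, the valyl enzyme, and FARSB, the beta subunit of the phenylalanyl enzyme. VARS1 had 21.6, 22.5, 19.4 and 15.4 FPKM with estradiol and 21.9, 19.2, 15.6 and 21.8 FPKM in control. FARSB had 6.43, 6.74, 7.14 and 9.70 FPKM with estradiol and 6.34, 6.45, 8.53 and 6.43 FPKM in control. FARSA, the alpha subunit of the same enzyme, stood at a mean of 34.2 FPKM. The order of the 2 subunits depended on the scale. In FPKM, FARSA was 2.77 to 5.93 times FARSB in estradiol libraries and 3.03 to 6.33 times in control libraries. In recovered reads it was 0.544 to 1.17 times FARSB with estradiol and 0.597 to 1.25 times in control. The authors' table used a length of 1811 bases for FARSA and 9202 bases for FARSB, the longest among the members.

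Among mitochondrial members IARS2, the isoleucyl enzyme, was the highest, at 37.0, 35.1, 37.5 and 51.9 FPKM in estradiol replicates 1 to 4 and 36.5, 37.6, 45.6 and 36.0 FPKM in control replicates 1 to 4. It was above every other mitochondrial member in each library. HARS2 came next, at 13.9, 15.2, 13.3 and 11.7 FPKM with estradiol and 13.4, 14.1, 11.3 and 13.6 FPKM in control. YARS2, the tyrosyl enzyme, had 12.0, 11.5, 10.9 and 11.6 FPKM with estradiol and 12.7, 12.4, 10.98 and 12.0 FPKM in control, and varied least of all members over the 8 libraries (coefficient of variation 5.51%). MARS2 and FARS2, the methionyl and phenylalanyl enzymes, were the lowest. MARS2 had 1.75, 1.80, 1.91 and 1.57 FPKM with estradiol and 1.43, 1.74, 1.55 and 1.71 FPKM in control. FARS2 had 1.53, 1.67, 1.55 and 1.35 FPKM with estradiol and 1.66, 1.60, 1.28 and 1.59 FPKM in control. The lowest read number for any member in any library was 122, for PARS2, the prolyl enzyme, in control replicate 3. In the order by mean, the ranges of 14 of 18 neighbouring pairs of cytosolic members overlapped, as did 11 of 15 mitochondrial pairs.

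In the pairs of genes compared for the same amino acid, the cytosolic gene was the higher in every library. This held for 15 of 15 pairs in FPKM and for 15 of 15 in recovered reads, counting FARSA and FARSB each against FARS2. EPRS1, whose 2 activities match EARS2 and PARS2, was left out of these pairs. Its lowest library, at 59.5 FPKM, was above the highest of EARS2 (2.91 FPKM) and of PARS2 (2.81 FPKM). The size of the gap differed widely. WARS1 was 45.8 to 75.5 times WARS2 and MARS1 was 43.5 to 60.5 times MARS2, whereas VARS1 was 2.04 to 2.41 times VARS2 and IARS1 was 2.66 to 3.06 times IARS2. For the head-to-head pair, HARS1 had 39.5, 42.5, 37.0 and 28.9 FPKM with estradiol and 37.9, 39.3, 31.7 and 39.5 FPKM in control. Its ratio to HARS2 lay between 2.47 and 2.91 over the 8 libraries. The log2 ratio of a pair differed between estradiol and control by -0.12 to 0.17, and the groups overlapped in 15 of 15 pairs. The difference of 0.17 was that of SARS1 over SARS2, which averaged 5.13 ± 0.09 on the log2 scale with estradiol and 4.96 ± 0.30 in control (SD, n = 4 each).

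**Figure D2:**
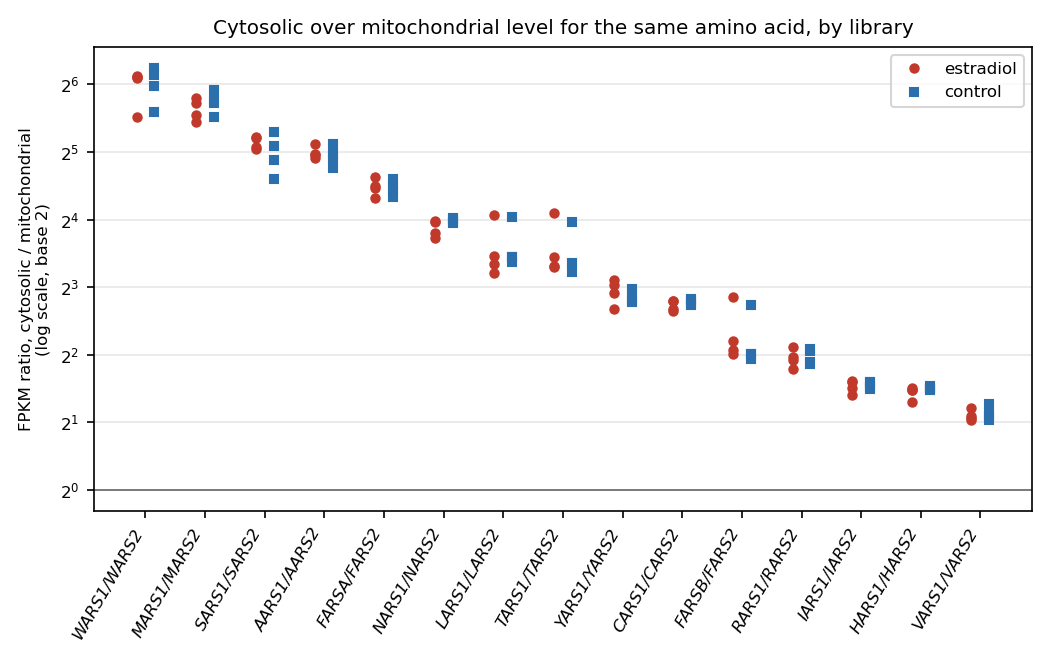
Ratio of cytosolic to mitochondrial FPKM for the same amino acid (log axis, base 2) in each estradiol (red circles) and control (blue squares) library, ordered by the mean ratio; the line marks a ratio of 1. EPRS1 is not plotted. All points lie above 1, with the lowest, 2.04, in the valyl pair.

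Estradiol against control was the comparison of the study. No synthetase transcript passed the test. Of 10720 genes tested with limma on log2(FPKM + 1), 0 were higher (0% of those tested) and 0 lower (0%) at a Benjamini-Hochberg adjusted p under 0.05, and so were 0 of 35 synthetases. Without adjustment, 26 genes (0.243%) and 0 synthetases had a p under 0.05. That share is far below the 1 in 20 awaited at this threshold with no true difference. The lack of synthetases among the 26 is therefore weak evidence of no change. limma-voom on the recovered reads gave 0 called genes, with 23 genes and 0 synthetases at an unadjusted p under 0.05. The estradiol and control libraries did not overlap for 57 genes (0.532%) and for 0 synthetases. The median log2 fold change was 0.02 over the 19 cytosolic members, with 16 positive, and 0.04 over the 16 mitochondrial members, with 10 positive, beside -0.00047 over all genes tested, of which 49.5% were positive. These medians turned negative without control replicate 3, to -0.04 for the cytosolic and -0.05 for the mitochondrial members, with 14 of 35 positive. They were 0.07 and 0.06 without estradiol replicate 4.

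The intervals limit how large a change these libraries allow. For 35 of 35 members the 95% interval of the fold change lay within 1.5-fold of FPKM + 1 in either direction, and the lowest and highest bounds on the log2 scale were -0.50 and 0.42. For low members such as FARS2 this scale understates a change of FPKM itself. The 5 members with the smallest unadjusted p were all mitochondrial. NARS2, the asparaginyl enzyme, had 5.12, 6.08, 5.82 and 6.03 FPKM with estradiol and 5.09, 4.95, 6.09 and 4.88 FPKM in control (log2 fold change 0.11 ± 0.09 SE, limma unadjusted p = 0.242, adjusted p = 0.999989). Control replicate 3 was its highest library and control replicate 4 its lowest. The others were MARS2 (log2 fold change 0.08), LARS2 (0.10), EARS2 (-0.08) and YARS2 (-0.06). LARS2, the leucyl enzyme, had 4.31, 4.39, 3.87 and 3.34 FPKM with estradiol and 3.78, 3.89, 3.08 and 3.81 FPKM in control. EARS2, which glutamylates mitochondrial transfer RNAs, had 2.54, 2.29, 2.29 and 2.31 FPKM with estradiol and 2.41, 2.91, 2.20 and 2.69 FPKM in control. Both overlapped between the groups.

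**Figure D3:**
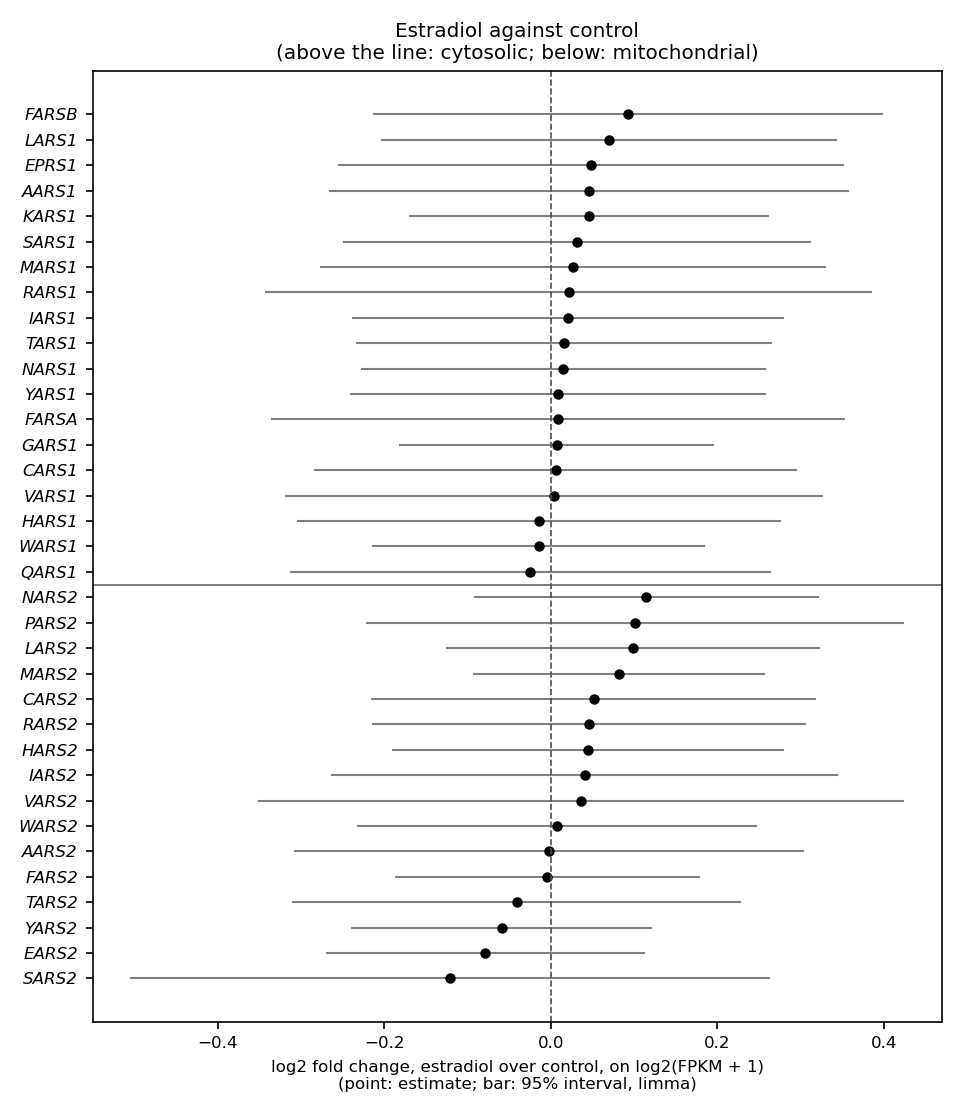
Log2 fold change of each synthetase, estradiol over control, on log2(FPKM + 1), with its 95% interval from limma; cytosolic members are above the line and mitochondrial members below. Every interval includes 0, and the bounds reach from -0.50 (SARS2) to 0.42 (PARS2).

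In the 6 libraries without estradiol replicate 4 and control replicate 3 the intervals were narrower, with a median half-width of 0.13 over the members against 0.27 in all 8 libraries. NARS2 was then the single member at an unadjusted p under 0.05 (log2 fold change 0.16 ± 0.07 SE, limma unadjusted p = 0.0412, adjusted p = 0.992), beside 416 of all genes (3.88%), and 0 genes passed after adjustment. SARS2, the seryl enzyme, had the next smallest p (log2 fold change -0.21 ± 0.11 SE, limma unadjusted p = 0.0823). It had 6.66, 5.74 and 5.56 FPKM in estradiol replicates 1 to 3 and 8.32, 5.95 and 7.10 FPKM in control replicates 1, 2 and 4. Estradiol replicate 4 and control replicate 3 had been left out because they stood apart in these same values. The narrower intervals, SE and p-values of the 6 libraries follow in part from that choice.

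Differences between libraries reached further than those between the groups, whose log2 fold changes lay between -0.12 and 0.11. This is not a like comparison. Estradiol replicate 4 and control replicate 3 were picked for standing apart in these same values. They come from opposite groups, so a shift they share largely cancels between the groups. In 11 members estradiol replicate 4 and control replicate 3 were both above the other 6 libraries, and in 19 members both were below. Over all genes tested this was so for 3714 genes (34.6%) and for 4703 genes (43.9%), so such a split was not particular to the synthetases. The 11 higher members were EPRS1, FARSB, GARS1, IARS1, LARS1, NARS1, RARS1, TARS1, IARS2, RARS2 and WARS2, with a GC content of the transcript between 41.4% and 48.6%. The 19 lower members had a GC content between 46.6% and 62.6%. At the ends, RARS1 was 0.51 higher and VARS2 was -0.53 on the log2 scale in the 2 libraries relative to the mean of the other 6. Across the 35 members, which share these libraries, the rank correlation of that difference with GC content was -0.895, and across the 10476 tested genes with a GC value it was -0.883. The median GC content was 48.6% for cytosolic and 51.2% for mitochondrial members. With the trend on GC content removed from each library, the median log2 fold changes were 0.02 for cytosolic and 0.03 for mitochondrial members, and 0 members were called. The labels name no batch for these libraries, and their part in any level given here beyond these values was not tested.

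**Figure D4:**
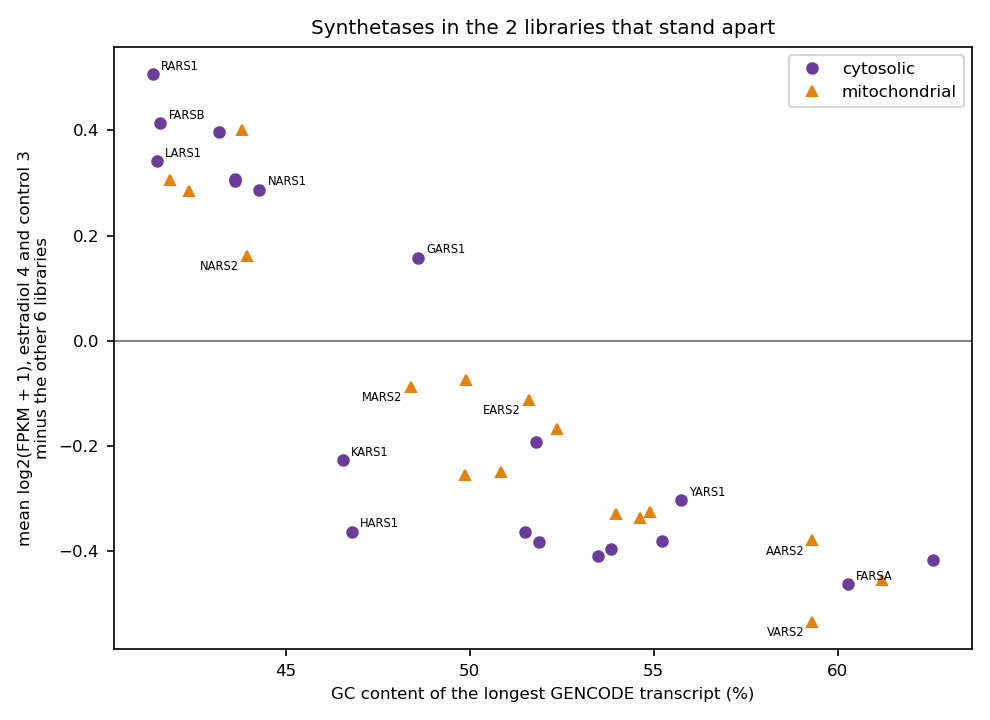
Mean log2(FPKM + 1) in estradiol replicate 4 and control replicate 3 minus the mean of the other 6 libraries, for each synthetase, against the GC content of its longest GENCODE transcript. Members with low GC content lie above 0, up to 0.51 for RARS1, and those with high GC content below, down to -0.53 for VARS2.

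Both structural classes of synthetase, which have unrelated catalytic folds, were tested without a call. EPRS1, which joins an enzyme of each class in 1 protein, was counted in neither. The 9 cytosolic class I members had a median log2 fold change of 0.01 and the 9 cytosolic class II members one of 0.02. Over both compartments it was 0.02 for the 18 class I and 0.02 for the 16 class II members, and 0 members of either class were called. The 7 cytosolic members with the C/EBP-ATF letters shown above had means of 61.4 to 287 FPKM (median 86.5), and the 9 with a promoter but without the letters had 7.22 to 201 FPKM (median 48.8). Their median log2 fold changes were both 0.02.

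No partner of the synthetases was called in the same test. Of 8 complex scaffolds and elongation factors 0 were higher and 0 lower, with a median log2 fold change of -0.01. AIMP1, a scaffold of the complex, measured 10.95 ± 2.32 FPKM with estradiol and 9.71 ± 1.55 FPKM in control. AIMP2, another scaffold, measured 10.8 ± 1.14 FPKM with estradiol and 11.5 ± 2.06 FPKM in control (SD, n = 4 each). The list for accessory steps and proofreading also holds TARS3, itself a threonyl-tRNA synthetase gene that is not a member here. Of its 11 genes, 10 were tested (AARSD1 was below the filter) and 0 passed in either direction, with a median of 0.02. Among them MTFMT, which formylates the mitochondrial initiator methionyl-tRNA, measured 4.02 ± 0.14 FPKM with estradiol and 3.71 ± 0.43 FPKM in control. GATC, a subunit of the amidotransferase that turns glutamyl- into glutaminyl-tRNA in mitochondria, measured 12.4 ± 1.99 FPKM with estradiol and 11.4 ± 1.29 FPKM in control (SD, n = 4 each). Of 8 mitochondrial translation factors 0 passed in either direction (median 0.0042). MTIF3 and MTIF2, both initiation factors, had the smallest p, with log2 fold changes of 0.06 and 0.05.

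Genes of the amino acid response, many of which ATF4 drives together with several synthetases, were likewise not called. Of 24 genes 0 were higher and 0 lower, with a median log2 fold change of -0.02 and 8 positive. STC2, a secreted glycoprotein, measured 73.1 ± 6.27 FPKM with estradiol and 78.6 ± 5.64 FPKM in control, and CHAC1, which degrades glutathione, 6.50 ± 0.77 FPKM with estradiol and 7.06 ± 1.27 FPKM in control (SD, n = 4 each). Levels within the list, named after their values were seen, were uneven in both groups. DDIT3, a stress-induced transcription factor, stood at 276 ± 27.9 FPKM with estradiol and 277 ± 40.5 FPKM in control, and ATF4 at 105 ± 14.6 FPKM with estradiol and 105 ± 15.2 FPKM in control. ASNS, the asparagine synthetase and a known ATF4 target, stood at 1.12 ± 0.28 FPKM with estradiol and 1.08 ± 0.23 FPKM in control (SD, n = 4 each). In these cells NARS1, which charges asparagine, had a mean of 83.7 FPKM.

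Some levels are less certain because genes share ground. By RefSeq gene spans, 7 members overlap another gene of the table with a mean of at least 1 FPKM, and whether counting used strand is not given in the sources used here. MARS1 overlaps DDIT3, which averaged 277 FPKM. The others are FARSA with FARSA-AS1, YARS1 with S100PBP, CARS2 with ING1, EARS2 with GGA2, FARS2 with LYRM4 and WARS2 with WARS2-AS1, whose partners averaged 1.39, 5.83, 3.202, 8.49, 2.78 and 1.48 FPKM.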

How the data were processed

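The authors deposited one table of FPKM per gene for 8 libraries, 4 estradiol and 4 control, and all 8 columns were used. Per the submitters' processing notes, the tools included fastp 0.20.1 and HTSeq, with no version for HTSeq; no aligner, build, annotation or strand setting is given in the sources used here. Groups and replicate numbers came from the sample titles. Whole reads and gene lengths were recovered from the steps between values: 152348 of 152348 values above 0 were rebuilt within a relative tolerance of 1e-06. Estradiol was compared with control by limma (3.58.1, under R 4.3.3), in a two-sided test of log2(FPKM + 1) that let the variance follow the mean, over the 10720 genes averaging at least 1 FPKM, with Benjamini-Hochberg adjustment over all of them and calls at an adjusted p under 0.05. All 35 members passed that filter. The fit was tested on simulated data. GC content came from the longest GENCODE 29 transcript (all 35 members matched). Other steps ran in Python 3.11.15 (pandas 2.3.3, numpy 2.4.6), with scipy 1.17.1 for ranks and matplotlib 3.10.9 for plots. The members and lists were chosen with earlier results of these data known. Values per library are given for the 3 highest and 2 lowest members of each set, the 5 with the smallest p, and GARS1, KARS1, EPRS1, WARS1, HARS1 and HARS2; those of SARS2 and of the libraries marked in the closing section were added after their values were seen. Of other genes, the 2 with the smallest p of each list are named. Libraries of a pair differed by at least 5.43 times the sampling noise (chi-square per degree of freedom), so none was counted as a duplicate.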

Additional observations from a re-analysis of the deposited data

Results flagged for a closer look

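Within a group of 4, a library was marked where its gap to the nearest other took a share of the group's range above Dixon's 95% critical value, which chance does in about 1 in 20 groups. Of 70 groups, 16 held such a library. It was estradiol replicate 4 in 8, control replicate 3 in 7 and estradiol replicate 1 in 1. The groups share the same libraries, so 1 in 20 is no yardstick for the 16. The share of such groups over all genes was not computed. Over all genes tested, estradiol replicate 4 and control replicate 3 were both above the other 6 libraries for 34.6% and both below for 43.9%. In estradiol replicate 4, IARS2 stood at 51.9 FPKM, NARS1 at 94.9, TARS1 at 92.1, RARS2 at 13.6 and WARS2 at 3.97, each above the other estradiol libraries. CARS1 at 49.7, QARS1 at 39.0 and WARS1 at 182 FPKM were below them. In control replicate 3, FARSB stood at 8.53 FPKM, NARS1 at 99.1, RARS1 at 54.0, TARS1 at 88.5 and IARS2 at 45.6, each above the other control libraries, and LARS2 at 3.08 and PARS2 at 1.38 FPKM were below them. PARS2 lay between 2.57 and 2.81 FPKM in the other control libraries and between 2.53 and 2.62 FPKM in the estradiol libraries, estradiol replicate 4 included. EARS2 stood at 2.54 FPKM in estradiol replicate 1, above 2.29 to 2.31 FPKM in the other estradiol libraries.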

How the results depend on the processing

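No gene and no synthetase was called under any of the 19 alternatives run: a pseudocount of 0.1, no filter, a filter at 5 FPKM, median-of-ratios size factors, a common total, quantile normalization, no mean-variance trend, the replicate block, each library left out, the 2 libraries that stood apart left out together, GC trend removal and limma-voom on recovered reads. The smallest adjusted p of a synthetase was 0.791, without control replicate 3. The median log2 fold change ranged from -0.04 to 0.07 for cytosolic and from -0.05 to 0.06 for mitochondrial members with 1 library left out, being negative for both without control replicate 3 and, for the cytosolic, without estradiol replicate 2 (-0.0050). Without both libraries that stood apart it was 0.02 and -0.0078. Of 300 values of the 16 members given by library, 31 changed sign. Those of EARS2, LARS2, MARS2, NARS2 and YARS2 did not in any alternative in which they were tested. These members were named for having the smallest unadjusted p in the main fit. A steady sign therefore follows in part from how they were chosen, and sign changes of members outside the 16 were not counted. EARS2, FARS2, LARS2 and MARS2 fell below the 5 FPKM filter. The filter settings, the mean-variance trend and the replicate block cannot move a member's fold change. The 300 values thus include some whose sign was fixed in advance. With the replicate block, 0 genes were called, and the medians of 0.02 and 0.04 were those of the main fit by construction. Deviations from the group means correlated between same-numbered libraries at 0.616 in number 1 and at 0.0728, -0.478 and -0.737 in numbers 2 to 4. Control replicate 3 and estradiol replicate 4 shift their group means, which pushes numbers 3 and 4 toward negative values. These correlations therefore cannot decide whether the libraries were paired. The labels name no pairing, and the numbers were not read as pairs. Depth limits PARS2 and MARS2 most, with as few as 122 and 170 reads; FPKM levels also rest on the gene lengths used.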
